A study of Drosophila melanogaster with 2 samples.

Results

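The loci described here lie at 8 genes of Drosophila melanogaster: *InR*, *Lk6*, *cbt*, *tara*, *Kdm2*, *Sirt6*, *Pgk* and *Unc-115a*, out of 13968 protein-coding genes. They were chosen for a contrast between the deposited lists of peaks. Each gene was nearest, by transcription start site (TSS), to at least 1 peak that passed the irreproducible discovery rate (IDR) threshold in a series-level ranked list and that overlapped no peak of either series-level thresholded set. The IDR is low for peaks that rank consistently high in both lists of a pair. A deposited score of 830, the threshold used, stands for an IDR of 0.01. The 8 genes were nearest to 56 passing peaks of 8212 in all, and 44 of the 56 were in neither set, against 12 that a set held. Over the whole series 207 of the 8212 passing peaks, 2.52%, were in neither set. Because absence chose the genes, the 44 are a description with no test, and nothing is read from their share.

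The assay was chromatin immunoprecipitation with sequencing (ChIP-seq) of whole embryos 8 to 24 h old of the strain CG32532-GFP, whose flies carry a transgene for the CG32532 protein joined to enhanced green fluorescent protein (eGFP). CG32532 is annotated as a predicted homeodomain protein, and homeodomains commonly read TAAT-type DNA sequences. The fusion protein was precipitated by its GFP tag together with its DNA, which had been sheared by sonication to 200 to 800 bp. The data are 2 biological replicates of 1 group, and every embryo carried the tagged protein, so no condition could be compared with another. The regulatory DNA that drives the transgene is not stated in the labels, and a whole embryo mixes all its cell types. A control named in the labels was not analysed here.

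A ChIP-seq peak marks DNA recovered with the tagged protein more often than its surroundings, whether the protein touched that DNA itself or through partners. The 8 genes encode proteins of different kinds. *InR* encodes the insulin receptor, which starts a kinase cascade that matches growth to nutrition, and *Lk6* encodes a kinase that phosphorylates the translation initiation factor eIF4E. *cbt* (cabut) encodes a zinc-finger transcription factor of the KLF family, *tara* (taranis) a SERTAD-family coregulator with roles in the cell cycle and in sleep, *Kdm2* a histone demethylase with a JmjC domain, and *Sirt6* an NAD-dependent deacetylase of the sirtuin family. *Pgk* encodes phosphoglycerate kinase, an enzyme of glycolysis that makes ATP, and *Unc-115a* encodes an actin-binding protein related to one that guides axons in the worm Caenorhabditis elegans.

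The DNA under the strongest peak in neither set is shown for each gene, because these 8 summits carry the description that follows. Each stretch is 81 bp long, 40 bp either side of the summit, on the forward strand of dm6 and read 5′ to 3′ from the RefSeq Release 6 genome. Capitals mark the longest run of A and T without a break.
InR, in neither set, chr3R:21619402-21619482: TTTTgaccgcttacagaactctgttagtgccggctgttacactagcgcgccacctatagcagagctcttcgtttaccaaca
Lk6, in neither set, chr3R:11761003-11761083: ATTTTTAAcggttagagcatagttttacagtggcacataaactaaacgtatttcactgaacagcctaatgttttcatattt
cbt, in neither set, chr2L:481039-481119: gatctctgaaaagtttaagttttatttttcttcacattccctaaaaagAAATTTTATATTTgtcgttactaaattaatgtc
tara, in neither set, chr3R:16236921-16237001: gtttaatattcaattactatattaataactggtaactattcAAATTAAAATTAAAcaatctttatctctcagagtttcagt
Kdm2, in neither set, chr3R:9055891-9055971: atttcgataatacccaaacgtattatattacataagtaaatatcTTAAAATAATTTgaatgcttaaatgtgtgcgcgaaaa
Sirt6, in neither set, chr3R:10261945-10262025: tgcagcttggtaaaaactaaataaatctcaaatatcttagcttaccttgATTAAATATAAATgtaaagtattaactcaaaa
Pgk, in neither set, chr2L:2750368-2750448: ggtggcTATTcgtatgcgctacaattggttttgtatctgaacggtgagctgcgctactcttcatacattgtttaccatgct
Unc-115a, in neither set, chr3R:9702760-9702840: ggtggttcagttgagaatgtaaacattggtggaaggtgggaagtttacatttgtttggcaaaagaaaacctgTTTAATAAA
tara, held by the sets, chr3R:16222440-16222520: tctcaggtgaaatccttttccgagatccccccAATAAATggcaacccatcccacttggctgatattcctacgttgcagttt
The last line is the strongest peak of the 8 genes that a set did hold, shown for comparison with the *tara* peak in neither set. A and T made up 79.0% of the *tara* stretch in neither set and 53.1% of the held *tara* stretch. The *cbt* and *Sirt6* stretches were each 76.5% A and T and the *Kdm2* stretch 75.3%, with unbroken runs of 13, 13 and 12 bases. The *InR* and *Pgk* stretches were mixed, at 50.6% and 55.6%, and their longest runs had 4 bases. None of the 9 stretches overlapped a coding exon or an untranslated region.

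The lists differ in what they keep, and the depth of the libraries is unknown because the files hold no read counts. One ranked list, called list A here, contained every peak of the 7718-peak optimal set at identical coordinates, and the other, list B, every peak of the 5325-peak conservative set. Of the passing peaks of list A, 197 of 7916 or 2.49% overlapped no peak of the optimal set, and of list B 136 of 5461 or 2.49% overlapped none of the conservative set. By identical coordinates the counts were 198 and 136. The deposited notes name 1 further source file for each thresholded set, of unstated content, and its part in the absences was not tested. Each replicate has its own ranked list and its own thresholded set, which the authors called from that replicate's data only. In those, 135 of 4092 passing peaks of replicate 1, or 3.3%, and 195 of 7045 of replicate 2, or 2.77%, were not in the replicate's own set.

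The signal value that goes with each peak is the strength given by the authors' caller, on a scale that is not stated. Signal in a replicate was therefore also expressed as a multiple of that replicate's median over the conservative peaks, 67.8 for replicate 1 and 116.3 for replicate 2 (5279 peaks found in both ranked lists). All 44 peaks in neither set overlapped a peak in the ranked list of each replicate. The thresholded set of replicate 1 held 0 of the 44 and that of replicate 2 also 0, although 25 overlapped a passing peak of replicate 1 and 35 a passing peak of replicate 2. By the strongest overlapping replicate peak, 23 passed in both replicates, 2 in replicate 1 alone, 12 in replicate 2 alone and 7 in neither.

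*InR*, the gene of the insulin receptor, lies on chromosome arm 3R at 21570248 to 21619321 on the reverse strand (FBgn0283499). It was nearest to 13 passing peaks, 7 in neither set and 6 held by a set. Its strongest peak in neither set had its summit at 21619442, 121 bp upstream of a TSS and outside the gene, with a signal of 143.2 in replicate 1 and 306.8 in replicate 2. Both replicates placed it above their median peak, at 2.38 ± 0.372 times the median (mean ± SD, n = 2), and its signal in the pooled data, 450.7, ranked 727th of the 8212. The 7 peaks formed an unbroken stretch of 12806 bp at the start of the gene, and the 6 held peaks lay further into it. The strongest held *InR* peak, at 21590826 and 635 bp upstream of another of the gene's 4 TSSs, had signals of 159.1 and 91.0 in replicates 1 and 2. Replicate 1 was thus the lower of the replicates at the peak in neither set and the higher at the held one.

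The other 6 *InR* peaks in neither set were weaker, with pooled signals from 28.9 to 160.3. That range spans 130.5, the median of passing peaks on the chromosome arms. The summit at 21615259 lay in a noncoding exon, and the rest lay in introns of *InR*. In replicate 1 their signals ran from 23.9 to 40.8, below that replicate's median peak, and 0 of the 6 passed the threshold there. In replicate 2 they ran from 57.2 to 146.6, on both sides of that replicate's median peak, and all 6 passed. The peaks at 21618481 and 21618690 overlap each other and share their replicate peaks, so they are not separate measurements.

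*Lk6*, which encodes the eIF4E kinase, lies on 3R at 11750931 to 11764457 on the reverse strand (FBgn0017581), and all of its 5 passing peaks were in neither set. The summit at 11761043 lay in an intron, 964 bp upstream of the nearest TSS, and had a signal of 1023 in replicate 1 and 1714 in replicate 2. Both values stood far above the median peak, at 14.9 ± 0.245 times the median (n = 2), and the pooled signal of 2756 ranked 12th of the 8212. The other 4 *Lk6* peaks, all intronic, passed in list A alone and were at the weak end, with pooled signals from 67.3 to 96.0. Their signals were 18.1 to 34.2 in replicate 1 and 55.1 to 75.5 in replicate 2, below the median peak in both. *Lk6* therefore had 1 very strong peak beside weak ones, and the 5 peaks together stretched over 4081 bp.

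*cbt*, the KLF-type factor, lies on 2L at 476446 to 479688 on the reverse strand (FBgn0043364), inside a longer gene on the opposite strand, *ush* (u-shaped), which encodes a zinc-finger cofactor of the FOG family. Of its 5 passing peaks, 4 were in neither set. The strongest, at 481079 in an intron of *ush* and 1391 bp upstream of the *cbt* TSS, had a signal of 1499 in replicate 1 and one of 2496 in replicate 2. It stood at 21.8 ± 0.455 times the median peak (n = 2), and its pooled signal of 3976 ranked 5th of the 8212. This and the *Lk6* peak were the 2 of the 44 whose pooled signal exceeded that of the 15th strongest conservative peak.

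The peaks on either side of the *cbt* maximum were strong as well. The summit at 480082 had signals of 241.5 and 560.0 in replicates 1 and 2, and that at 481992 had 212.5 and 440.5. The remaining peak, at 479122, lay in an untranslated region and within the bounds of both *cbt* and *ush*. It had 50.4 in replicate 1 and 272.9 in replicate 2, which put replicate 1 below its median peak and replicate 2 above. The 1 *cbt* peak held by a set, at 484392, had only 59.2 and 115.8, a pooled signal of 183.0. Among the passing peaks nearest to *cbt*, those in neither set were thus all stronger than the held one. Held peaks nearest to *ush* in the same region reached 459.0, above the peak at 479122. The nearer TSS does not settle whether the peaks in neither set belong to *cbt* or to *ush*.

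*tara*, the SERTAD-family coregulator, lies on 3R at 16225651 to 16260329 on the forward strand (FBgn0040071). It had more peaks in neither set than any other gene of the series, 15 of its 19 passing peaks. The strongest had its summit at 16236961, in an intron and 5855 bp upstream of the second TSS, with a signal of 484.0 in replicate 1 and 800.6 in replicate 2. It stood at 7.01 ± 0.179 times the median peak (n = 2), and its pooled signal of 1281 ranked 97th. The held *tara* peak at 16222480, outside the gene and 3171 bp upstream of its first TSS, had signals of 489.8 and 735.7 and a pooled signal of 1236, which ranked 109th. At nearly the same signal in both replicates, 1 of these *tara* peaks was in neither set and the other was held.

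A further *tara* peak in neither set, at 16224499 and 1152 bp upstream of the first TSS, had signals of 293.3 and 686.5 in replicates 1 and 2 and a pooled signal of 979.7. The other 13 were intronic, with a pooled signal from 2.48 to 257.2. The lowest of these, at 16252405, overlapped the stronger call at 16252202 and shared its replicate peaks, which had 41.8 in replicate 1 and 49.8 in replicate 2. The 15 peaks reached over 28230 bp, with the held peaks at 16247835 and 16248319 between them. A stretch of *tara* peaks in neither set thus lay on each side of these held peaks.

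*Kdm2*, the JmjC demethylase, lies on 3R at 9052495 to 9063245 on the forward strand (FBgn0037659), and all of its 7 passing peaks were in neither set. The strongest, at 9055931 in an intron and 2640 bp downstream of the nearest TSS, had a signal of 257.0 in replicate 1 and 533.6 in replicate 2, or 4.19 ± 0.565 times the median peak (n = 2). The intronic peak at 9057567 had 192.7 and 436.2, and the one at 9054794 had 203.6 and 347.2. One more, 137 bp upstream of the second TSS, at 9053154, had 111.1 and 240.2. These 4 lay above the median peak in both replicates. The remaining 3, with pooled signals from 71.9 to 96.5, lay below it in both, and they included the peak in the untranslated region, 71 bp from the first TSS, and the only 1 of the 44 in a coding exon, at 9058527.

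*Sirt6*, the sirtuin, lies on 3R at 10255349 to 10261849 on the reverse strand (FBgn0037802) and had 1 passing peak. Its summit at 10261985 lay outside the gene, 136 bp upstream of the only TSS, with a signal of 378.4 in replicate 1 and 607.7 in replicate 2. The peak stood at 5.40 ± 0.251 times the median (n = 2), with a pooled signal of 1004 that ranked 160th. Of the 44, its 200-bp window held the least G and C, 21.5%.

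*Pgk*, the glycolytic kinase, lies on 2L at 2746880 to 2753068 on the reverse strand (FBgn0250906), with 5 TSSs, and 2 of its 3 passing peaks were in neither set. The stronger, at 2750408 in an intron and 261 bp upstream of a TSS, had a signal of 183.6 in replicate 1 and 312.9 in replicate 2. The weaker, at 2751370 and 381 bp upstream of another TSS, had 21.1 and 52.6. Against these, the held *Pgk* peak at 2748805, also intronic, had 227.3 in replicate 1 and 337.7 in replicate 2. The stronger peak in neither set stood at 2.70 ± 0.0125 times the median and the held peak at 3.13 ± 0.316 times (n = 2 each), both in introns of the same gene.

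*Unc-115a*, the actin-binding protein, lies on 3R at 9694386 to 9705417 on the reverse strand (FBgn0051352), and all of its 3 passing peaks were in neither set. The strongest, at 9702800 in an intron, had a signal of 161.5 in replicate 1 and 367.3 in replicate 2, or 2.77 ± 0.549 times the median peak (n = 2). The intronic peak at 9704815 had 54.2 and 106.8, and the peak at 9705451, 34 bp upstream of a TSS, had 68.4 and 76.6. The last was at replicate 1's median and below replicate 2's. All 3 passed the threshold in each replicate's ranked list.

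**Figure D1:**
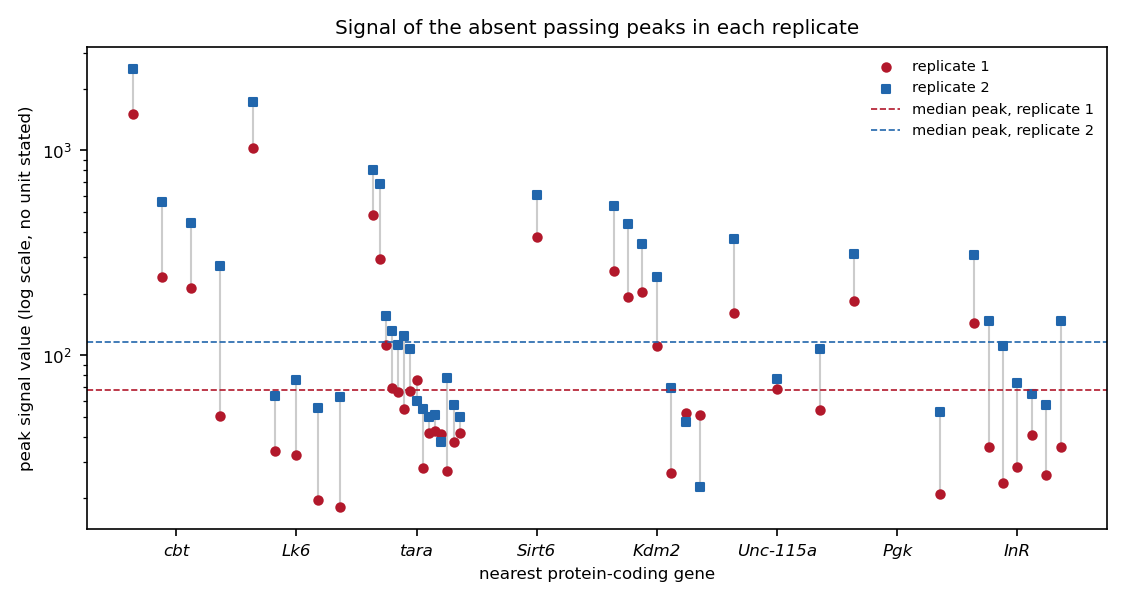
Signal value (log scale, no unit stated) of the strongest overlapping peak in each replicate's ranked list for the 44 passing peaks in neither set, grouped by nearest gene; circles are replicate 1, squares replicate 2, grey lines join the same peak, and dashed lines give each replicate's median conservative peak, 67.8 and 116.3. The *cbt* peak at 1499 and 2496 and the *Lk6* peak at 1023 and 1714 stand above all others, and most *tara*, *InR* and *Lk6* peaks lie below the dashed lines.

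Across the 44, 11 had a pooled signal of 500 or more and 17 one under 100, so both strong and weak peaks were involved. Their median multiple of the replicate medians was 0.876, against 0.766 over all held peaks. Both are under 1 on a scale set by the conservative peaks only. In 31 of the 44 the multiples of the replicates differed by less than 1.5 times. The peak was relatively higher in replicate 1 for 19 and in replicate 2 for 25. Of the 7716 held peaks found in both replicates, 3670 were relatively higher in replicate 1 and 4046 in replicate 2. The log2 ratio of replicate 1 to replicate 2, on the scale of these multiples, had a median of -0.18 and an SD of 0.68 over the 44, against -0.04 and 0.74 over the held peaks. Spearman's rho between the replicates was 0.757 over the 44 peaks, which include 2 overlapping pairs and hence 42 separate sites. Over the held peaks it was 0.650, and the difference was not tested. The summit moved by at most 50 bp from its pooled position in 33 peaks of replicate 1 and in 37 of replicate 2. The counts of 31, 33 and 37 have no share over held peaks beside them, so nothing is read from them.

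**Figure D2:**
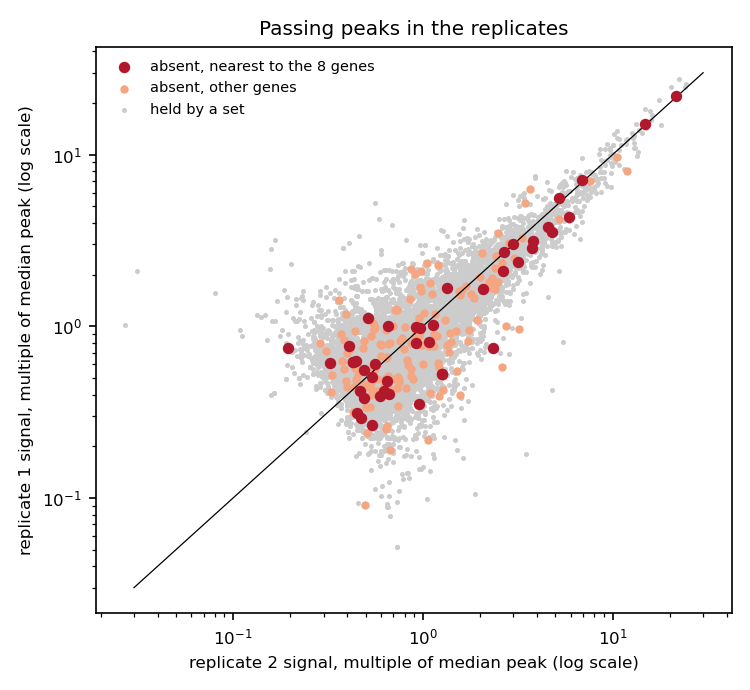
Signal of passing peaks as a multiple of the median conservative peak, replicate 2 on the horizontal and replicate 1 on the vertical axis (both log scale); dark red points are the 44 peaks in neither set nearest to the 8 genes, orange points such peaks at other genes, grey points peaks held by a set, and the line marks equal multiples. The strongest member peaks, *cbt* at 21.8 and *Lk6* at 14.9 times on average, lie close to the line, and the weaker ones scatter within the grey cloud.

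Around each gene the peaks in neither set stood side by side. Taking consecutive passing peaks along an arm, the 205 peaks in neither set on the chromosome arms fell into 79 runs with no held peak inside, and 46 runs with at least 2 such peaks held 172 of them. The 8 genes lay in 9 runs of 2 to 10 peaks each, with a median of 7 peaks and a median span of 8575 bp. The other 70 runs had a median of 2 peaks and 618 bp, and 33 of those held a single peak. These lengths describe genes picked for their absent peaks, so they show no difference between the 2 kinds of run.

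The longest run of the 8 genes by number of peaks, 16224355 to 16242934 on 3R, held 10 *tara* peaks. The *cbt* run, 471120 to 482104 on 2L, held 7 peaks, among them those nearest to *CG4297* and *ush*, and the next held peak on its left began only 178 bp away. The *Kdm2* run from 9048268 to 9058706 held 8 peaks, and the nearest held peaks lay 14096 bp and 4048 bp beyond its ends. The *Unc-115a* run of 4 peaks was the most isolated, with 24612 bp and 36172 bp to the nearest held peaks. The *Sirt6* run paired its peak with one at *Nuak*, which encodes a kinase, and the *Pgk* run of 6 peaks went on into *Bacc*. Within 20 kb of the strongest peak, *Unc-115a* had 4 passing peaks in neither set and 0 held, *tara* 17 and 5, *Pgk* 6 and 9, and *cbt* 7 and 7.

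**Figure D3:**
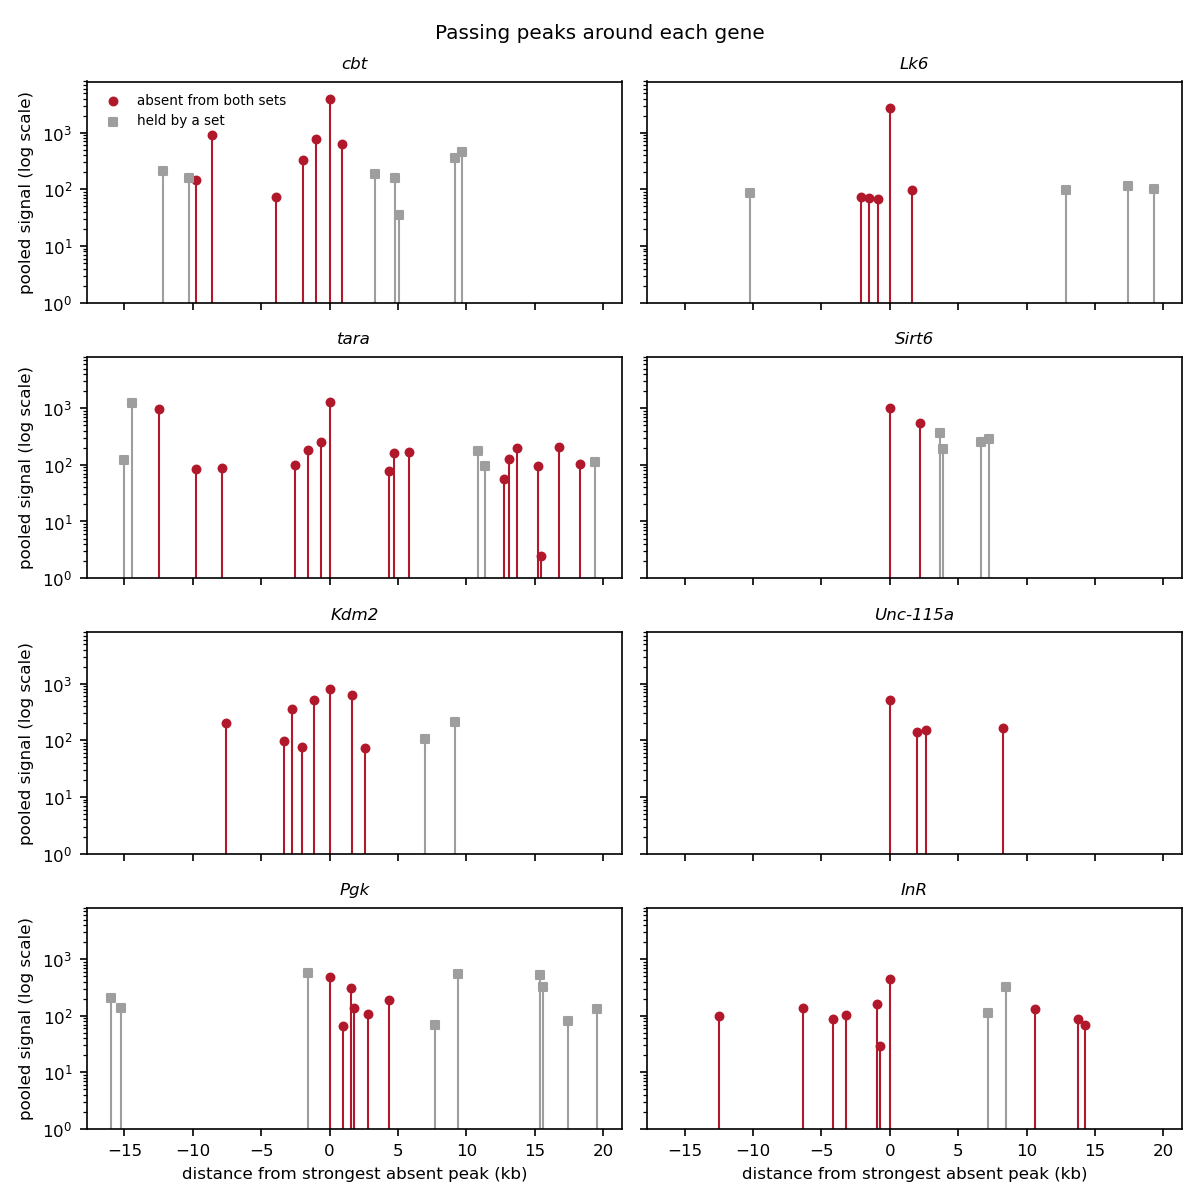
Pooled signal (log scale, no unit stated) of all passing peaks within 20 kb of the strongest peak in neither set of each gene, by distance in kb; red circles are peaks in neither set and grey squares peaks held by a set. Red peaks stand side by side at every gene, and at *cbt* the 7 red and 7 grey peaks occupy separate stretches.

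The 44 peaks lay on only 2 arms, 38 on 3R at 6 genes and 6 on 2L at *cbt* and *Pgk*. 3R held 23.8% of all passing peaks. Of the 1955 passing peaks on 3R, 136 or 6.96% were in neither set, 38 of them at the 8 genes and 98 at others. On 2L the figure was 46 of 1511, or 3.04%, on 2R 0.85%, on 3L 0.469% and on X 0.134%. On 3R the peaks in neither set at genes other than these 6 were also more numerous than the whole-arm counts of 2L, 2R, 3L and X, and this was not tested.

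**Figure D4:**
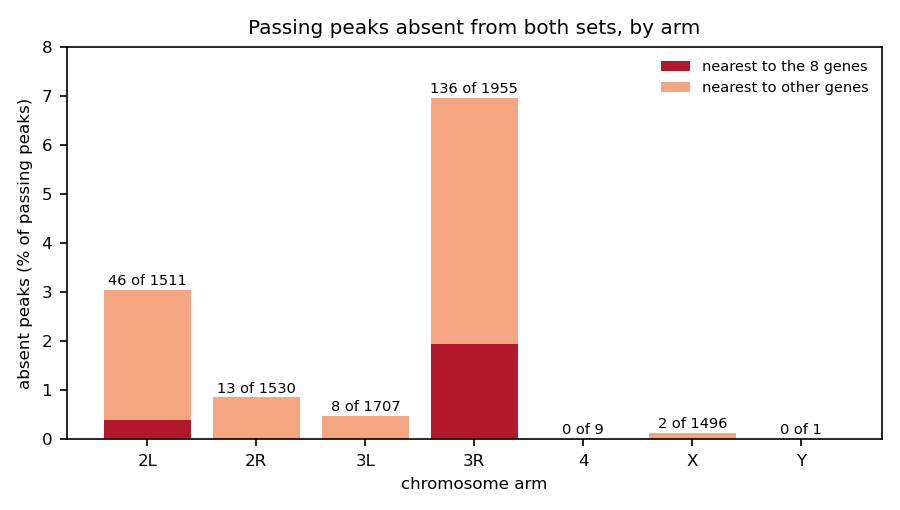
Share of passing peaks in neither set on each chromosome arm (percent of the arm's passing peaks), with counts above the bars; dark red is the part nearest to the 8 genes and orange the part nearest to others. 3R reaches 6.96% and 2L 3.04%, and the other arms stay at 0.85% or below.

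In position the 44 peaks differed between genes. By summit, 36 (81.8%) were in introns, 33 of them in an intron of the nearest gene itself and 3, those of *cbt*, in an intron of *ush*. Peaks in neither set at other genes were intronic in 67 of 161 cases (41.6%) and all held peaks in 3561 of 8004 (44.5%). The held peaks of the same 8 genes were also mostly intronic, 9 of 12 (75.0%). Within 500 bp of a TSS lay 11 of the 44 (25%), against 84 (52.2%) at other genes and 3861 (48.2%) of all held peaks. Of the 12 held peaks at the 8 genes, 1 (8.33%) lay that close. *tara*, with 15 peaks, supplies 14 of the intronic summits, and members of 1 gene share their surroundings, so these shares were not tested. A width of exactly 360 bp, the commonest in the lists, belonged to 25 of the 44 (56.8%), against 72.3% of the held peaks.

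Base composition went with signal. Over the 200 bp at the summit, G and C made up a median of 44.5% in the 44 peaks, 44.0% in peaks in neither set at other genes and 39.0% in held peaks. The 15 member peaks with a pooled signal of 300 or more had a median of 35.5%, with 7 of them under 35%, and the 29 weaker ones a median of 49.5%, with 2 under 35%. Over all passing peaks the medians were 34.5% for 1408 strong and 40.5% for 6801 weak peaks. Spearman's rho between G and C content and pooled signal was -0.41 over the 44 and -0.37 over the 8004 held peaks, where all points share the same libraries. Strong peaks low in G and C included *Sirt6* at 21.5%, *Kdm2* at 22.5% (summit 9057567) and *tara* at 26.5%, and the strongest, *cbt*, had 41.0%.

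**Figure D5:**
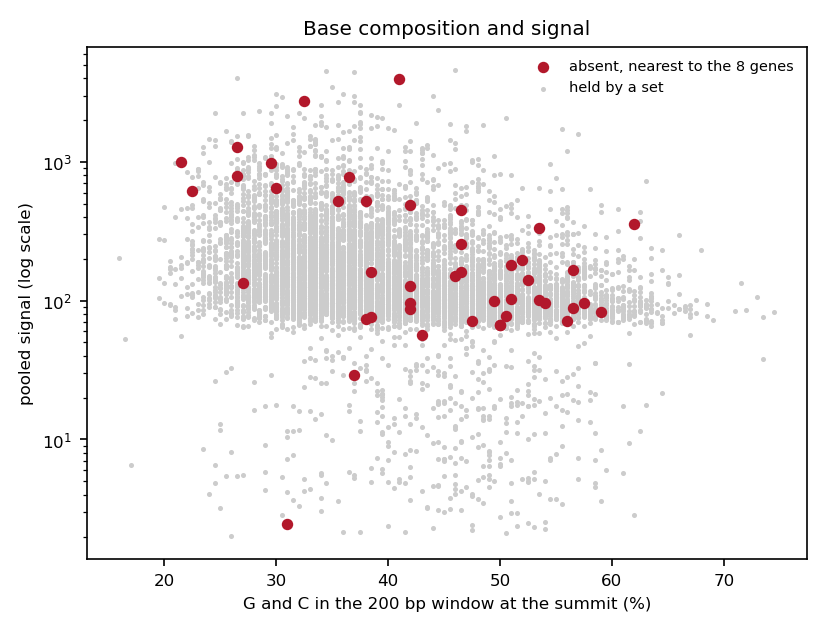
Pooled signal (log scale, no unit stated) against the G and C content in percent of the 200-bp window at the summit, for the 44 peaks nearest to the 8 genes and in neither set (dark red) and for held peaks (grey). Most dark red points above 300 lie left of 45%, with *Sirt6* at 21.5%, and most weaker ones lie right of 40%.

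Short motifs were counted in the same 200-bp windows, on both strands, for 10 sequences, none of which contains another. GAGAG, the core read by GAGA factor, a chromatin-opening protein, occurred in 20 of the 44 windows (45.5%), in 43.4% of all windows of peaks in neither set, in 27.9% of all passing windows and in 21.5% of 200-bp tiles of the arms. GTAAACA, the core read by forkhead proteins, occurred in 6 of the 44 (13.6%) and in 0 of the 12 held windows of the same genes. It was in 5.85% of all windows of peaks in neither set, 5.17% of passing windows and 3.82% of tiles. The 6 windows with GTAAACA were at *Lk6* (11761043 and 11762676), *Pgk* (both peaks in neither set), *Unc-115a* (9702800) and *tara* (16252405). The *Unc-115a* stretch printed above holds GTAAACA itself, and the *Pgk* stretch holds its reverse complement TGTTTAC. The homeodomain-type sequence TAATTA occurred in 5 (11.4%), beside 13.6% of passing windows and 12.4% of tiles, so its share among the 44 was near both.

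CAGCTG, an E-box, occurred in 5 of the 44 (11.4%), beside 10.1% of passing windows and 8.3% of tiles. CACGTG was in 2 (at *cbt* and *tara*; 4.55% against 2.33% and 2.34%) and TGACGTCA in 1 (at *Lk6*; 2.27% against 0.499% and 0.274%). CAGGTA was in 1 (at *tara*; 2.27% against 3.92% and 4.61%). TATCGATA, TGACTCA and GGTCACACT were in 0 of the 44 and in 3.68%, 1.89% and 1.72% of passing windows, and in 0.562%, 1.58% and 0.2% of tiles. With 44 windows, many from the same gene, counts this small only list where the letters occur.

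Other genes of the same pathways were counted from lists of each gene's partners. Of all 13968 protein-coding genes, 32.5% were nearest to a passing peak and 0.716%, 100 genes, to one in neither set. Of 29 insulin, PI3K and TOR genes, 14 (48.3%) had a passing peak, and *InR* was the only one with a peak in neither set. The transcription factor gene *foxo*, which acts downstream of the receptor, had 13 passing peaks, all held, with 581.2 and 1156 in replicates 1 and 2 at its strongest, followed by the kinase gene *sgg* (pooled signal 772.0) and *Pi3K21B*, a PI3K subunit gene (358.9). In glycolysis, 9 of 13 genes (69.2%) had a passing peak, and only *Pgk* had one in neither set, while the strongest peaks of *Gapdh2* (1911), *Eno* (851.7) and *Hex-A* (681.8) were held. Among 5 sirtuins, *Sirt6*, *Sirt1* (317.3) and *Sirt4* (155.3) had 1 passing peak each, and that of *Sirt6* alone was in neither set.

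Of 11 JmjC genes 5 (45.5%) had a passing peak, and besides *Kdm2* all of them were held, with *JMJD7* (340.9), *Kdm5* (154.6) and *Kdm4B* (149.0) strongest. Of 8 KLF and SP genes 4 (50%) had one, and besides *cbt* the peaks of *dar1* (397.5), *Spps* (97.3) and *luna* (72.6) were held. Of 17 genes of eIF4E, its partners and related kinases 6 (35.3%) had one, and besides *Lk6* they were held, with *p38a* (905.3), *Thor* (322.6), which encodes the eIF4E-binding protein, and *p38b* (182.1) strongest. Of 16 actin regulators 10 (62.5%) had one. There *chic*, the profilin gene, shared the absence with *Unc-115a*, with both of its peaks in neither set (188 at the stronger), while *tsr* (868.5), *trio* (728.4) and *capu* (360.7) were held. Of 18 cell cycle genes 7 (38.9%) had one, and *CycB* (1073) and *CycE* (319.5) were held. Besides *tara* the factor gene *E2f1* had 3 of 5 peaks in neither set, the strongest at 130.5. *E2f1* neighbours *InR*, and those 3 peaks lay 10.6 to 14.3 kb from the strongest *InR* peak in neither set. Apart from the 8 genes, *chic* and *E2f1*, no gene of these 8 lists had a peak in neither set. Without the member, 13 of 28 insulin, PI3K and TOR genes, 8 of 12 glycolysis genes and 2 of 4 sirtuins had a passing peak. So did 4 of 10 JmjC genes, 3 of 7 KLF and SP genes and 5 of 16 genes of the eIF4E list. Among actin regulators it was 9 of 15, and among cell cycle genes 6 of 17.

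Across the series 100 genes had at least 1 passing peak in neither set, 2.2% of the 4538 genes with a passing peak, and 61 (1.34%) had all of them there. Of the 8 genes, *Kdm2*, *Lk6*, *Sirt6* and *Unc-115a* belonged to the 61. The 15 strongest such peaks elsewhere were nearest to *CG18428* (pooled signal 1942), *larp* (1894), *trx* (1329), *CG4297*, *CG6966*, *isoQC*, *CG1943*, *Nuak*, *Rh5* with 2 peaks, *Sin3A*, *CG4935*, *crp* with 2 peaks, and *SIFaR* (423.0). The *cbt* and *Lk6* peaks were stronger than all of these. Of the 44 peaks 13 (29.5%) ranked in the top 1000 by pooled signal, against 19 of 161 (11.8%) at other genes and 968 (12.1%) of the held peaks, a description only, since the 8 genes were proposed with these signals known.

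The genes whose strongest optimal-set peak was most like the median of the 44 peaks, by distance between the log2 multiples of both replicates over 4422 genes, were *PolD3*, *CG43332*, *Glys*, *Papss* and *Cyp4d21*. Their signals were 51.3 to 55.0 in replicate 1 and 107.1 to 110.7 in replicate 2, at distances of 0.018 to 0.054 on the log2 scale.

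In list A 34 of the 44 peaks had a score of 1000, at which the scale ends, and 43 of the 44 passed. In list B 29 of the 44 passed, and the *tara* peak at 16252405, with 1000 in list A, had a score of 67 there. So did the *cbt* peak at 479122. By gene, list B passed 11 of 15 at *tara*, 5 of 7 at *Kdm2*, 4 of 7 at *InR* and 3 of 4 at *cbt*. It passed 1 of 5 at *Lk6*, 1 of 2 at *Pgk*, and all at *Unc-115a* and *Sirt6*. Just inside the threshold in list A were the peaks of *tara* at 16227162 with a score of 846, *Kdm2* at 9058527 with 849 and *tara* at 16249733 with 899. Just outside were peaks of *tara* at 16239621 with 748, *Lk6* at 11758547 with 733 and *tara* at 16225884 with 699. In list B the nearest inside were *tara* at 16252202 with 848 and 16249733 with 854, and *Kdm2* at 9053943 with 860. The nearest outside in list B were *Lk6* at 11762676 with 787, *Pgk* at 2749702 with 782 and *Lk6* at 11758955 with 749.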

How the data were processed

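Per the labels, the files are lists of peaks on dm6 from 2 replicates of 1 group. Aligner and caller, with versions, were not given in the sources used here. As deposited, the score is the authors' IDR on a scale with 1000 as its top. The deposited signal value is the authors' measure of peak strength, on a scale not stated, and was used within lists or as a multiple of a median. The −log10 q values deposited by the authors entered no comparison. In each ranked list 8 further columns of input-list values have no name and were not used. Series-level lists carry values of pooled calls.

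A passing peak (score of at least 830 in either series-level ranked list) was in neither set when no peak of the conservative or optimal set overlapped it by 1 bp. Its nearest protein-coding TSS came from Ensembl release 115. Its signal in a replicate was taken from the strongest peak overlapping it in the ranked list of that replicate. The classes of exon, untranslated region, intron and intergenic DNA also came from Ensembl release 115. Motifs, G and C content and sequences used the RefSeq Release 6 genome. The steps that decide presence in a set and the nearest TSS were tested on simulated peaks, and no other step was. The work used Python 3.11.15 and pandas 2.3.3. The labels' age field gave implausible hours and was not used. The symbols *Tor* and *PSR* of the lists matched no annotated gene name.

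The 8 genes, the lists and the motifs were chosen with earlier results of these data known. The named genes are the 8, those nearest to the 15 strongest other peaks in neither set, the 5 most like the median member peak, up to 3 genes per list with the strongest peaks, and every list gene with a peak in neither set. With 1 group of 2 replicates and genes chosen by the outcome, no test was run. The spread between replicates is an SD over 2 values.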

Additional observations from a re-analysis of the deposited data

How the results depend on the processing

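The number of member peaks in neither set was 44, and stayed at 44 when 50% of the peak had to be covered or when a set summit within 200 bp counted as presence. It was 34 with a score of 1000, 39 with the nearest TSS of any gene (1 *tara* peak and 4 *InR* peaks then went to noncoding RNA genes), 43 with list A alone and 29 with list B alone. The share of list A absent from the optimal set moved between 2.49% and 2.59%. That of list B absent from the conservative set moved between 2.49% and 2.56%. The median multiple over the 44 peaks was 0.876, and 1.12 when divided by the median of the optimal set. It was 0.783 to 0.939 when either replicate was left out. The optimal-set median also raised the multiple of the strongest peak of each of the 8 genes, to 27.9 at *cbt* and 3.04 at *InR*. Taking the replicate peak with the nearest summit left all 8 of these multiples as they were. With 2 replicates, leaving one out moves a mean by less than the SD by construction, so it shows nothing of their stability. No paired analysis was possible because there is 1 group. Depth is unknown, so no limit of detection can be given for any peak.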
